A study of Rattus norvegicus with 6 samples.

Results

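The 8 genes described here encode pore-forming (alpha) subunits of the sodium channel family: Scn1a, Scn2a, Scn3a, Scn7a, Scn8a, Scn9a, Scn10a and Scn11a. They were chosen by gene symbol, with earlier results of these data known. All 8 were found among the 18696 genes for which group averages were deposited, and 6 of them among the 1637 genes with a value for each library. Scn2a and Scn7a had group averages alone. Total RNA of SD rat dorsal root ganglia was sequenced; these ganglia hold the cell bodies of the neurons of touch, body position and pain. In the SNI group (3 libraries) 2 sciatic branches, the tibial and the common peroneal, had been ligated and cut, and the sural branch was spared. In the sham group (3 libraries) the nerve and its branches were exposed and the skin was closed, with no cut to the nerve. Age, sex, ganglion level, side and the time after surgery were not stated. Nor was it stated whether each library was a separate rat, so p-values measure the spread between these libraries, which may be technical.

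A voltage-gated sodium channel opens when the membrane depolarises and carries the inward current that starts and conducts the action potential. One large alpha subunit forms the pore, smaller beta subunits and intracellular FGF-like proteins tune its gating, and ankyrin and cell adhesion proteins hold it at the initial segment and at nodes of Ranvier. Sensory neurons mix channels blocked by tetrodotoxin (encoded by Scn1a, Scn2a, Scn3a, Scn8a and Scn9a) with the resistant channels of nociceptors (Scn10a and Scn11a). Scn7a encodes a relative that responds to the sodium concentration around the cell and is known from glia as well as from sensory neurons.

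Promoter sequence was at hand in RefSeq (GRCr8) for 7 of the 8 genes, all but Scn1a. The promoters of 4 genes are shown because these genes were called changed in SNI: Scn3a rose, while Scn8a, Scn10a and Scn11a fell. Each line gives the 250 bases before the start site of the table, 5′ to 3′ on the gene's strand, with capitals at every match to a searched motif.
Scn3a, GRCr8 chr3:70666199-70666448, minus strand: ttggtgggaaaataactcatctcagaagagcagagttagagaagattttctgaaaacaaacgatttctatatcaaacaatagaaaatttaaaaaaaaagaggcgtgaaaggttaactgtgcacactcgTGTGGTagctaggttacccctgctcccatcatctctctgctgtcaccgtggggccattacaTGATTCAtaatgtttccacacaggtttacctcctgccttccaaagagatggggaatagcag
Scn8a, GRCr8 chr7:133860977-133861226, plus strand: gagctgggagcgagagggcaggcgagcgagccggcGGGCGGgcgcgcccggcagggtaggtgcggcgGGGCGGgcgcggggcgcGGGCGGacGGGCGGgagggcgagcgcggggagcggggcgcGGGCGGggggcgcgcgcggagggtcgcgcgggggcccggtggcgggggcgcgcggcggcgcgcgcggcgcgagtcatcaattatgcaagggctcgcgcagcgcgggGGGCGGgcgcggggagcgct
Scn10a, GRCr8 chr8:128340299-128340548, minus strand: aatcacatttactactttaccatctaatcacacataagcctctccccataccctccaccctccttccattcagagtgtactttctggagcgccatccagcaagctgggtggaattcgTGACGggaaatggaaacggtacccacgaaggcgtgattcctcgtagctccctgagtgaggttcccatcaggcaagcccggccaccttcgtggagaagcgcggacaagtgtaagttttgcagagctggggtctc
Scn11a, GRCr8 chr8:128444719-128444968, minus strand: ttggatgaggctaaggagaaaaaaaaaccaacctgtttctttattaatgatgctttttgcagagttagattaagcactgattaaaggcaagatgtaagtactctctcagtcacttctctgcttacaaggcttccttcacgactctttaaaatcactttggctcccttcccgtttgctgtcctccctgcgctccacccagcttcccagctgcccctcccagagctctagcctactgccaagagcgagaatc

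Both strands of these 250 bases were searched for 5 short motifs. The TATA box was searched as TATAAA. For the GC box, bound by Sp1-like factors, the letters were GGGCGG. AP-1, the Fos and Jun dimer, was represented loosely by TGANTCA, where N is any base. The core of the cyclic AMP response element was taken as TGACG. RUNX factors were represented by TGTGGT. No match overlapped a match to another motif. The Scn3a promoter held 1 match to the AP-1 letters (TGATTCA, with T at the free base), 61 bases before the start. It also held 1 RUNX match, 122 bases before the start. AP-1 matches were present in 6.34% and RUNX matches in 14.5% of 33469 RefSeq promoters of the same length. The Scn8a promoter held 6 GC boxes, a motif found in 30.5% of all promoters. It was also 86.0% G or C, with 53 CpG pairs, against medians of 51.2% and 5 over all promoters. Scn10a held 1 TGACG match, 133 bases before the start (18.2% of all promoters hold one). Scn11a held none of the 5 motifs, and neither did Scn2a or Scn9a, while Scn7a held 1 GC box. TATAAA, present in 12.9% of all promoters, was found in none of the 7. The promoters of the 3 genes that fell differed widely in base composition (86.0%, 53.2% and 46.4% G or C for Scn8a, Scn10a and Scn11a). A match is a run of letters and does not show binding.

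In sham ganglia Scn10a, Scn7a and Scn11a were the most abundant of the 8 genes. Levels are in TPM, the length-corrected share of a gene's transcripts in its library, so they can be set beside each other across genes. Scn10a (Nav1.8), which carries much of the current of the nociceptor action potential, averaged 220.2 TPM. Scn7a averaged 212 TPM, inside the range of the 3 sham libraries of Scn10a (203 to 231 TPM), so the order of these 2 genes is not settled. Scn11a (Nav1.9), a channel of slow persistent current near the resting potential, stood at 152 TPM. Scn9a (Nav1.7), which amplifies small depolarisations in nociceptors, stood at 70.2 TPM, Scn1a, a channel of large-diameter sensory and central neurons, at 44.0 TPM, and Scn8a, the main channel of adult nodes of Ranvier, at 30.5 TPM. No 2 of the 6 genes with values per library overlapped in the sham group or in the SNI group. Scn3a, abundant in embryonic neurons, averaged 3.29 TPM and Scn2a, a channel of central axons, 2.62 TPM. The authors' average read counts behind these values ran from 196 for Scn2a in SNI to 14667 for Scn7a in SNI, so none of the 8 genes was measured on a handful of reads. Scn10a, Scn7a and Scn11a lay at percentiles 95.7, 95.4 and 93.4 of all genes with averages in sham, and Scn3a and Scn2a at 33.8 and 31.2.

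**Figure D1:**
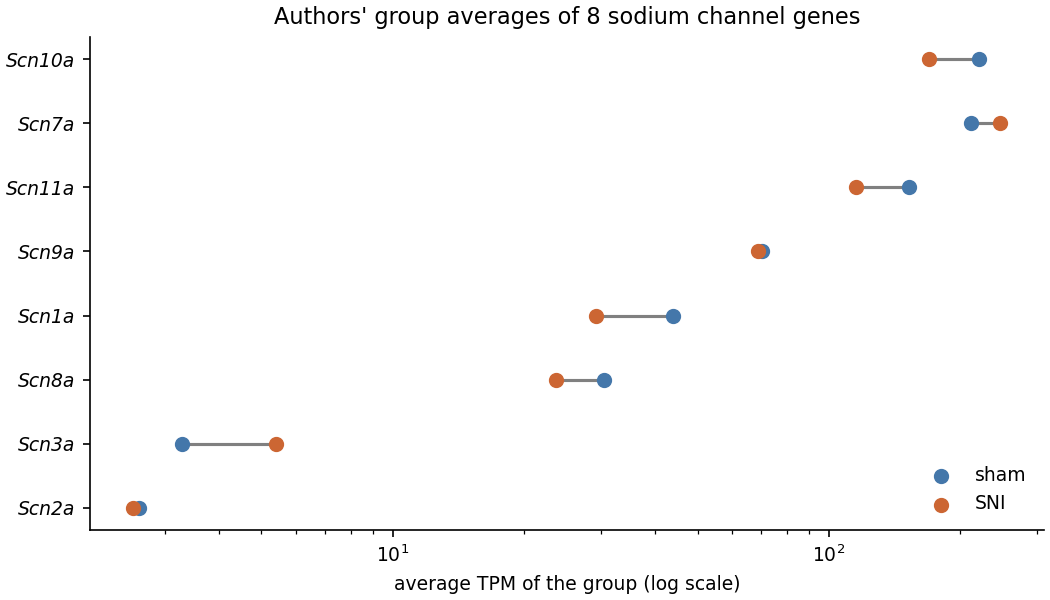
The authors' average TPM of the 8 genes (log axis) in sham and SNI, joined by a line and ordered by the sham level; averages carry no error. Scn10a (220.2 TPM) and Scn7a (212 TPM) lie close together in sham, and Scn7a stands at 247 TPM in SNI.

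After SNI, 4 of the 6 genes with values per library fell, 1 rose and 1 was not called (limma on log2(TPM + 1), Benjamini-Hochberg adjusted p under 0.05 over the 1596 genes tested). The genes that fell were Scn1a, Scn8a, Scn10a and Scn11a, and Scn3a rose. The table of values per library is a selection by the authors in which 61.2% of the genes tested were called, 29.2% lower and 32.0% higher. Being called is therefore common there, and 5 of 6 is read against that share. Sham and SNI libraries were apart for the same 5 genes, as they were for 66.7% of the genes tested. Sham replicate 2 was the lowest sham library for all 6 genes, which summed to 486 TPM there and to 545 and 531 TPM in the other sham libraries, and no call depended on it. In bulk ganglia, fewer cells of a type and less RNA per cell cannot be told apart. None of the 8 genes was in the authors' own lists of higher or lower genes, which hold 3.63% and 0.695% of the genes with averages.

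Among the resistant channels of nociceptors, Scn10a measured 227, 203 and 231 TPM in the sham libraries and 165, 167 and 178 TPM in the SNI libraries. The lowest sham library lay above the highest SNI library, as it did for 31.3% of the genes tested. The mean fell by 23.0%, from 220.2 ± 15.4 to 169.6 ± 7.08 TPM (SD, n = 3), or −0.37 as a log2 fold change (SE 0.060, limma adjusted p = 0.00053). Scn11a, its neighbour on chromosome 8, measured 159, 144 and 154 TPM in the sham libraries and 115.3, 115.2 and 115.5 TPM in the SNI libraries. The 3 SNI libraries were almost equal (SD 0.140 TPM), and all lay under every sham library. Its mean fell from 152 ± 7.68 to 115 ± 0.140 TPM (SD, n = 3), or −0.40 as a log2 fold change (SE 0.049, limma adjusted p = 9.6e-05). The TPM ratio of Scn10a to Scn11a was 1.44 ± 0.0471 in sham and 1.47 ± 0.0598 in SNI, and the libraries overlapped.

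Of the channels that tetrodotoxin blocks, Scn1a had the largest fall among the 6 genes. Its sham libraries held 48.0, 41.5 and 42.3 TPM and its SNI libraries 28.6, 29.0 and 30.2 TPM, with wide space between the groups. The mean fell by 33.4%, from 44.0 ± 3.56 to 29.3 ± 0.828 TPM (SD, n = 3), or −0.57 as a log2 fold change (SE 0.065, limma adjusted p = 6.1e-05). Scn8a, the nodal channel, measured 32.5, 27.1 and 31.9 TPM in the sham libraries and 23.2, 23.5 and 24.2 TPM in the SNI libraries. The groups did not overlap, though sham replicate 2 came near the SNI libraries. The mean fell from 30.5 ± 2.93 to 23.6 ± 0.495 TPM (SD, n = 3), or −0.35 as a log2 fold change (SE 0.073, limma adjusted p = 0.0027).

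Scn9a, whose loss of function in people removes the sense of pain, was the gene not called. Its sham libraries held 75.2, 67.3 and 68.2 TPM and its SNI libraries 66.8, 68.9 and 70.5 TPM, so the groups overlapped and only sham replicate 1 stood higher. The log2 fold change was −0.03 (limma adjusted p = 0.69), with a 95% confidence interval from −0.16 to 0.10. That interval leaves out falls of the size of the 4 genes that fell, but the p-value does not show that Scn9a was the same in both groups. Relative to the mean of 5 general neuron markers in the same library, the sign turned and Scn9a was called higher, at a log2 fold change of 0.11 (limma adjusted p = 0.044; from 0.044 to 0.94 over all alternatives). Under this reference 747 of the 1596 genes (46.8%) were called higher and the median log2 fold change of all genes was 0.14, above that of Scn9a. The other 5 genes kept their direction and their call under that reference.

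Scn3a, the embryonic channel that is known to return in injured sensory neurons, was the 1 gene of the 6 that rose. Its sham libraries held 3.36, 3.18 and 3.34 TPM and its SNI libraries 5.14, 5.75 and 5.29 TPM, and every SNI library lay above every sham library, as for 35.3% of the genes tested. The mean went from 3.29 ± 0.0987 to 5.39 ± 0.318 TPM (SD, n = 3), a rise of 63.8%, or 0.57 as a log2 fold change (SE 0.086, limma adjusted p = 0.00036). That scale adds 1 to each TPM and so understates the change of a low gene: without the added 1, the log2 ratio of the averages was 0.71. After quantile normalization of the table the log2 fold change was 0.20 and the call was lost (limma adjusted p = 0.0501; from 6.4e-05 to 0.0501 over all alternatives). At 5.39 TPM in SNI it was still the lowest of the 6 genes. The average read count of Scn3a rose more than its TPM, from 249 to 427 reads (log2 ratio 0.78). Its reads per TPM, which grow with the length of the transcripts that the reads were assigned to, were 75.7 in sham and 79.1 in SNI. This change of 4.57% stood at percentile 97.7 of the 14321 genes with both averages at 1 TPM or more, while the other 7 genes changed by 0.619% to 1.63%.

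**Figure D2:**
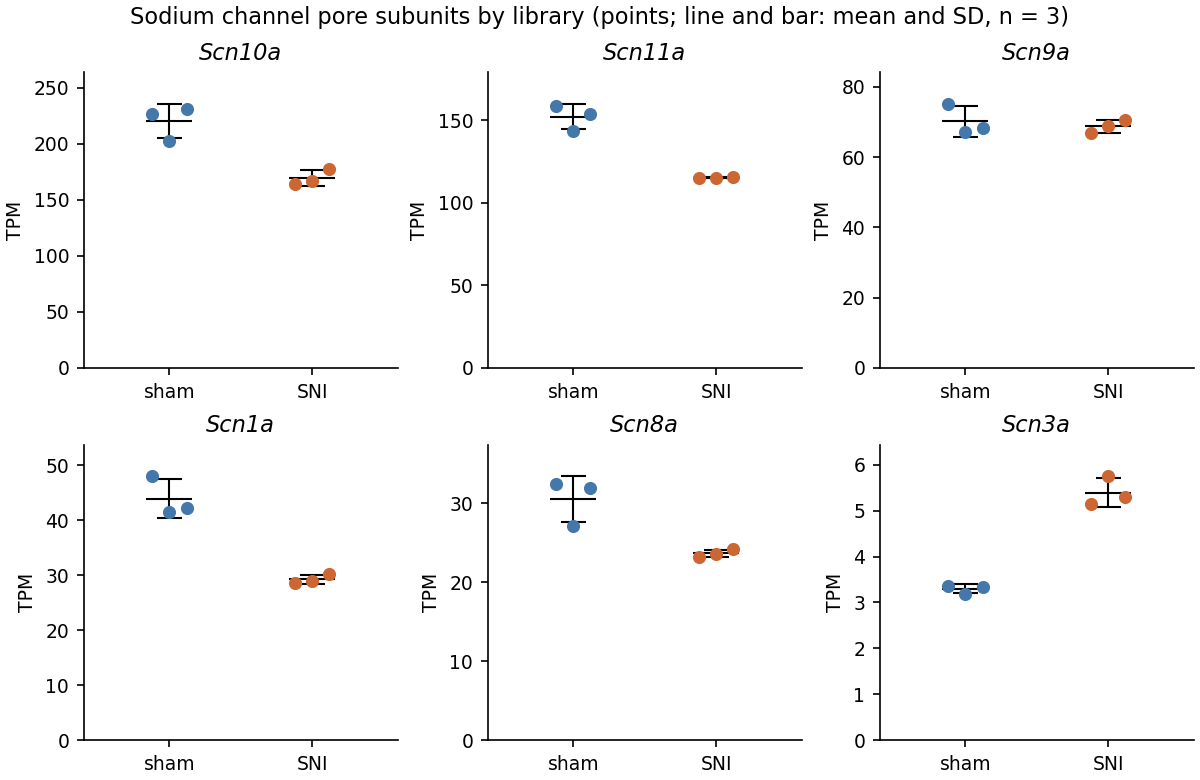
TPM in each library (points) with the mean and SD (line and bar, n = 3 per group) for the 6 genes with values per library; each panel starts at 0. Sham and SNI points are apart for Scn10a, Scn11a, Scn1a, Scn8a and Scn3a and mixed for Scn9a.

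For the other 2 genes the deposited averages have no spread, so no test was possible. Scn7a, the sodium-sensing relative, had averages of 212 TPM (sham) and 247 TPM (SNI), 16.6% more, at 12502 and 14667 reads. Scn2a averaged 2.62 and 2.54 TPM, at 201 and 196 reads. Averages were lower in SNI for 6 of the 8 genes, against 45.9% of all genes with averages. Scn2a and Scn9a are counted among these 6 with log2 ratios of only −0.03 each. The median log2 ratio of the 8 was −0.19, and that of all genes 0.017.

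**Figure D3:**
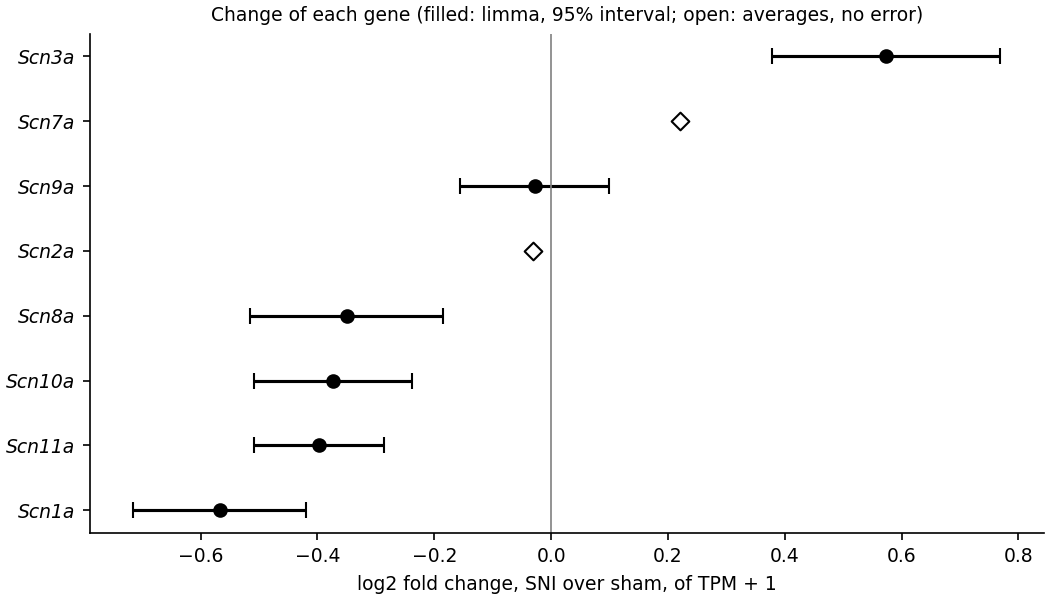
Log2 fold change of SNI over sham on the TPM + 1 scale. Filled points are limma estimates with 95% confidence intervals and open points are ratios of averages with no error; the intervals of Scn1a, Scn11a, Scn10a and Scn8a lie below 0, that of Scn3a above 0, and that of Scn9a spans 0.

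The mix of pore subunits was described as shares, with no test. The averages of all 8 genes summed to 735 TPM in sham and 662 TPM in SNI. Without Scn7a the sums were 523 and 415 TPM. Scn10a and Scn11a together made up 50.7% of the sum of the 8 in sham and 43.1% in SNI, and Scn7a 28.8% and 37.4%. Over the 6 genes with values per library, which exclude Scn7a, Scn10a and Scn11a made up 70.8%, 71.4% and 72.6% in the sham libraries and 69.3%, 68.9% and 69.2% in the SNI libraries. The share of Scn9a was 13.5 ± 0.565% in sham and 16.7 ± 0.154% in SNI (SD, n = 3), with its own level not called. The share of Scn3a was 0.633 ± 0.0195% in sham and 1.31 ± 0.0844% in SNI.

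Ratios between 2 genes of the same library do not depend on how that library was scaled. Of the 15 pairs of the 6 genes, 12 had sham and SNI libraries apart and 3 overlapped. Over all pairs of tested genes above 0 in every library, 71.2% were apart, so the count says nothing particular to these genes. With 3 libraries a group, the smallest two-sided p of an exact permutation test is 0.1, which these 12 pairs gave (0.125 after adjustment over the 15 pairs), so no pair passed. The ratio of Scn1a to Scn3a differed most, at 14.3, 13.1 and 12.7 in sham and 5.57, 5.04 and 5.71 in SNI. The ratio of Scn10a to Scn9a was 3.02, 3.01 and 3.39 in sham and 2.46, 2.42 and 2.52 in SNI, lower in every SNI library. The ratio of Scn1a to Scn8a was 1.48, 1.53 and 1.33 in sham and 1.23, 1.23 and 1.25 in SNI, again apart. The 3 pairs that overlapped were those among Scn8a, Scn10a and Scn11a, whose log2 ratios to each other differed by 0.01 to 0.04 between the groups (exact permutation p from 0.6 to 0.7). Such p-values do not show that the nodal channel and both nociceptor channels fell equally.

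**Figure D4:**
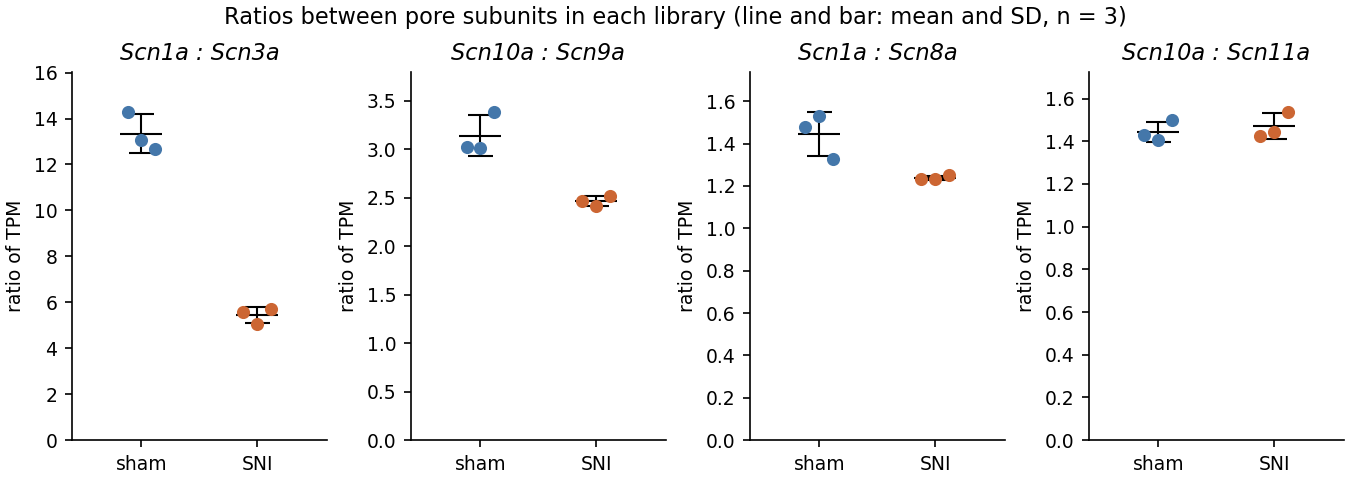
Ratio of TPM between 2 genes in each library (points) with the mean and SD (line and bar, n = 3 per group), each axis from 0. The ratio of Scn1a to Scn3a is 13.3 ± 0.851 in sham and 5.44 ± 0.353 in SNI, and that of Scn10a to Scn11a overlaps between the groups.

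Neighbouring genes differed in sign on one chromosome and not on another. In RefSeq, Scn3a, Scn2a, Scn1a, Scn9a and Scn7a follow each other in this order on chromosome 3. Within this run, the log2 ratios of the averages were 0.57, −0.03, −0.57, −0.03 and 0.22. On chromosome 8, Scn10a and Scn11a follow each other, with log2 ratios of −0.37 and −0.40. Scn8a stands by itself on chromosome 7 and Scn4a on chromosome 10. Scn4a, the channel of skeletal muscle, was low, with averages of 2.29 and 1.99 TPM in sham and SNI.

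For each gene with values per library, 2 genes with the most similar profile were sought among genes of at least 5 TPM. Likeness was the root mean square difference of the log2(TPM + 1) values over the 6 libraries, each gene centred on its own mean. Nearest to Scn1a were Dpp10, an auxiliary subunit of Kv4 potassium channels (0.0254), and Kcna2, a Kv1 potassium channel of the axon (0.0297). Nearest to Scn10a were the GABA-B receptor subunit Gabbr2 (0.0207) and the sphingosine-1-phosphate phosphatase Sgpp2 (0.0266). Sgpp2 was also nearest to Scn8a (0.0211), followed by the protocadherin Pcdh7 (0.0298). Parm1 (0.0208) and the sulfotransferase Chst15 (0.0224) were nearest to Scn11a. Scn3a was nearest to Pros1, the anticoagulant protein S (0.0368), and the small GTPase Rab33a (0.0403). The added 1 shrinks the change of Scn3a (3.29 TPM in sham) more than those of Pros1 (10.7 TPM) and Rab33a (35.9 TPM). Scn9a was nearest to the cohesin regulator Pds5b (0.0097) and the growth factor Ptn (0.0133), both not called, as was Scn9a. Across 2 groups of libraries, a small value of this measure mostly means a group difference of like size.

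Among the partners of the pore subunits, few members had values per library. Counts in the partner lists are read against the shares over all genes. Averages were lower in SNI for 45.9% of genes, and of the genes tested 29.2% fell and 32.0% rose. A count near these shares says nothing particular to a list. Of the beta subunits, 1 was tested and not called: Scn4b, which gives the resurgent current its blocking particle, at 257 ± 5.79 and 242 ± 4.14 TPM (SD, n = 3 each; log2 fold change −0.09, limma adjusted p = 0.086). Of the 4 beta subunits, 3 had a lower average in SNI. The exception, Scn3b, named after its value was seen, averaged 50.5 and 81.4 TPM, with no test. Of the 4 intracellular FGFs, which bind the channel tail, averages were lower for 3, and the 1 tested, Fgf12, fell from 267 ± 10.9 to 212 ± 10.1 TPM (SD, n = 3; log2 fold change −0.33, limma adjusted p = 0.00044). Fgf13, the most abundant, averaged 432 and 369 TPM.

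Of 13 genes that anchor or cluster the channels, 6 were tested, 3 fell and 3 were not called, and the median log2 ratio of the 13 averages was 0.03. Cntnap2, which holds potassium channels beside the node, fell from 40.3 ± 2.89 to 32.1 ± 1.25 TPM (limma adjusted p = 0.0021). Cntn2, its partner in adhesion, fell by 0.21 on the log2 scale, and Nfasc, neurofascin of nodes and initial segments, by 0.20. The ankyrins Ank3 and Ank2, scaffolds that bind the channels, had log2 fold changes of 0.13 and 0.10 and were not called. Of 10 trafficking and turnover genes, 4 were tested and 1 rose: S100a10, the annexin light chain that brings Scn10a channels to the membrane, from 2105 ± 70.1 to 2515 ± 118 TPM (SD, n = 3; log2 fold change 0.26, limma adjusted p = 0.00091). Scn10a itself fell in the same libraries. Of 5 kinases that act on the channels, 1 was tested and fell, Prkce (76.0 ± 6.29 to 59.8 ± 3.72 TPM, limma adjusted p = 0.0028). The most abundant kinases, Prkaca and Fyn, had log2 ratios of averages of −0.35 and −0.01.

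None of the 3 transcription factors listed had values per library. Pou4f1, a factor of sensory neuron identity, averaged 101 and 103 TPM, and Runx1, a factor of nonpeptidergic nociceptors, 23.3 and 22.4 TPM. The third, Rest, a repressor of neuronal genes that include sodium channels, named after its value was seen, averaged 2.62 and 3.37 TPM. Of the 6 subunits of the sodium pump, which restores the gradient the channels run down, both that were tested fell. Atp1b1, a beta subunit of the pump, fell by 0.12 on the log2 scale (limma adjusted p = 0.020). Averages of the pump subunits were lower in SNI for 5 of 6. The exception, Atp1b2, named after its value was seen, had a log2 ratio of averages of 0.77, with no test.

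**Figure D5:**
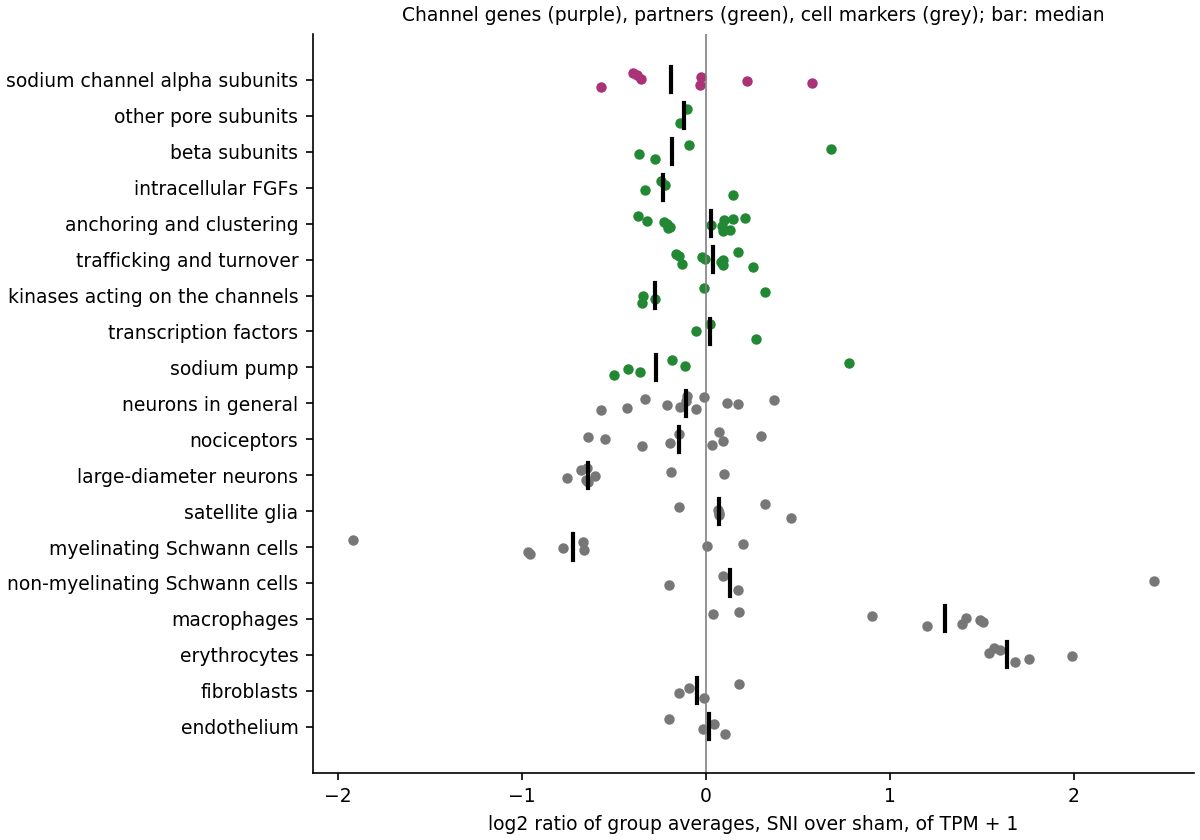
Log2 ratio of the authors' group averages (SNI over sham, TPM + 1) for each gene of the sodium channel list, its partner lists and cell marker lists, with the median as a bar; markers of injured neurons, muscle and spinal cord are not drawn. The median is −0.19 for the 8 pore subunits, −0.11 for general neuron markers and −0.64 for markers of large-diameter neurons.

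Cell markers moved beside these genes, and their part in the results was not tested. Over all genes, 45.9% of averages were lower in SNI. Of the genes tested 61.2% were called, 29.2% lower and 32.0% higher. Marker counts near these shares say nothing particular to a cell type. Of 12 general neuron markers, 9 had a lower average in SNI, with a median log2 ratio of −0.11. Their summed averages were 16236 TPM in sham and 16697 TPM in SNI, most of it Uchl1 and Tubb3. Of the 5 neuron markers with values per library, 3 fell and 2 were not called, and they summed to 2610 to 2717 TPM in sham and 2155 to 2212 TPM in SNI. Of 9 nociceptor markers 5 were lower and 4 higher (median −0.15), with 1 of 2 tested falling. The averages of these 9 summed to 5142 TPM in sham and 5624 TPM in SNI. Of 8 markers of large-diameter neurons 7 were lower (median −0.64), and both that were tested fell. All 8 markers of injured neurons had higher averages, and both tested rose. Of 8 markers of myelinating Schwann cells 6 were lower (median −0.72). All 4 that were tested fell, and these summed to 8117 to 8283 TPM in sham and 4076 to 4220 TPM in SNI. Of the 4 markers of non-myelinating Schwann cells 3 had higher averages (median 0.13), and the averages of all 4 summed to 838 TPM in sham and 834 TPM in SNI. The 2 tested, Ncam1 and Gfap, rose, from 103 to 111 TPM summed in sham to 168 to 178 TPM in SNI. Most of this rise was Gfap (means of 11.1 and 64.2 TPM), while Ncam1 had means of 96.1 and 108 TPM. Of 6 markers of satellite glia 5 had higher averages (median 0.07). The averages summed to 8777 TPM in sham and 8017 TPM in SNI, most of it Apoe (8348 and 7526 TPM). Of the 3 tested, Apoe fell and 2 were not called. All 8 macrophage markers had higher averages (median 1.30), from 107 to 239 TPM summed, but the 2 that could be tested, Cd163 and Mrc1, were not called. All 6 erythrocyte markers with averages were higher (median 1.64), from 230 to 251 TPM summed in sham to 791 to 818 TPM in SNI. Fibroblast and endothelial markers had medians of −0.05 and 0.01. The ganglion markers Uchl1 and Prph stood at 6428 and 2762 TPM in sham. The 6 spinal cord markers summed to 6.52 and 7.18 TPM and the 4 skeletal muscle markers to 18.9 and 18.5 TPM, with none at 0.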

How the data were processed

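RNA-seq of rat dorsal root ganglia, 3 SNI and 3 sham libraries, was used as deposited. Per the file headers, the authors gave TPM per library for 1637 genes, and average TPM and average read count per group for 18696 genes; their lists of higher and lower genes hold gene IDs with pathway names. The read counts were deposited as non-whole averages, so they are estimated counts, with sums of 18.6 M in both groups; depth per library is unknown. Not given in the sources used here: aligner, counter, build, annotation, strand and the rule behind the per-library selection. Per the labels' protocols, 2 library kits are named. Columns headed control were taken as sham.

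The 1596 genes averaging 1 TPM or more over the libraries (41 did not) were fitted as log2(TPM + 1) with limma 3.58.1 (R 4.3.3). The model held the group term alone, with an intensity trend, and p-values were Benjamini-Hochberg adjusted over these genes (threshold 0.05). The fit was tested on simulated data. Ratios of averages used a pseudocount of 1 and have no test. Python 3.11.15, numpy 2.4.6, pandas 2.3.3, scipy 1.17.1, statsmodels 0.14.6 and matplotlib 3.10.9 did the rest. Symbols, gene order and promoters came from RefSeq (GRCr8), whose build may differ from that of the files.

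Members and lists were chosen with earlier results of these data known. Named were all members, called genes of each partner list (or its 2 most abundant), and the 2 genes of nearest profile; a few named by this rule are not reported here.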

Additional observations from a re-analysis of the deposited data

How the results depend on the processing

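Scn1a, Scn8a, Scn10a and Scn11a kept their direction and their call under all 15 alternatives run, with log2 fold changes from −0.63 to −0.43, −0.47 to −0.22, −0.43 to −0.24 and −0.44 to −0.26. Scn3a kept both in 13 of 14, the exception being quantile normalization (0.20); with a minimum of 5 TPM it was not tested. With 1 library left out, Scn9a ranged from −0.058 to 0.021, the sign turning without sham replicate 1. It turned to 0.11 relative to the mean of 5 general neuron markers in the same library. Over the table, 976 genes were called, and 823 to 979 when 1 library was left out. Of the called genes 47.7% were lower, 60.2% after quantile normalization and 26.6% relative to neuron markers, a reference that moved the median log2 fold change of all genes from 0.0098 to 0.14. The ratios of averages were set against another reference, the median log2 ratio of 12 general neuron markers (−0.11), with no test. With that median subtracted, the median log2 ratio of the 8 averages was −0.086, and Scn2a and Scn9a turned to 0.076 and 0.077. From average read counts, Scn10a and Scn11a made up 47.0% of the 8 in sham and 39.9% in SNI. Read counts, unlike TPM, are not corrected for length. Reads per TPM in sham were 59.6 for Scn10a and 53.8 for Scn11a, and 58.7 to 85.1 for the others. The cause of the lower share in SNI was not tested. The label numbers are shared between groups, but same-numbered libraries did not deviate together (correlations −0.09, −0.06 and 0.19), and not every library correlated best with its own number. With the replicate block, 945 genes and 5 of the 6 channel genes were called. Without depth per library, counting error cannot be given.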
